A study of Mus musculus with 8 samples.

Results

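A set of 10 genes that make, recycle or consume nicotinamide adenine dinucleotide (NAD) was followed in cultured FAPs of the mouse (fibro-adipogenic progenitors, a mesenchymal population of skeletal muscle with adipocyte and fibroblast fates). They were Cd38, Bst1, Nampt, Nmnat1, Nmnat3, Naprt, Nnmt, Parp1, Sirt1 and Sirt3, and all 10 were found by Ensembl ID among the 20781 genes of the count table. Vehicle libraries (4) and melatonin libraries (4) were compared. Per the labels, every library came from FAPs of male mice, with uninjured tibialis anterior, gastrocnemius and quadriceps as the tissue, described as wild type and given as C57BL/6 or C57BL/6J. After 48 h in culture the cells received vehicle or melatonin for 24 h, and the replicates are called biological. Neither the concentration of melatonin nor the age of the mice is given in the labels, and the extraction protocol names longissimus dorsi in place of those 3 muscles. The 10 genes were chosen by a rule written with the melatonin against vehicle fold changes of these same libraries in view, so their values in that contrast are a description and support nothing further.

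NAD carries electrons in metabolism and is also a substrate that is broken down. NAMPT, the rate-limiting enzyme of salvage, turns nicotinamide into nicotinamide mononucleotide, NMNAT enzymes add the adenylate to give NAD, and NAPRT starts a parallel route from nicotinic acid. CD38 and BST1 are ecto-enzymes that cleave NAD and make cyclic ADP-ribose, PARP1 spends NAD to build poly-ADP-ribose at DNA breaks, and sirtuins spend it to remove acyl groups from proteins. NNMT methylates nicotinamide, which takes it out of salvage. In muscle, NAD salvage is known for its role in fibre energy supply and in progenitor cells, and CD38 is best known as a surface enzyme of immune cells.

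Promoters of 3 of the genes are shown because they represent the gene of the large fall, the salvage enzyme that fell less, and a consumer that rose. Each runs from 250 bases before to 50 bases after the start of the gene in RefSeq on GRCm38.p6, 5′ to 3′ on the gene's own strand, and capitals mark matches to the motifs listed after them. The GENCODE M21 annotation places the gene starts elsewhere: Cd38 at 43868553, Nampt at 32819545 and Sirt1, on the minus strand, at 63381704. All these windows lie within the GENCODE bounds of their genes. RefSeq promoters were matched for 7 of the 10 genes: Cd38, Nampt, Nmnat1, Nmnat3, Parp1, Sirt1 and Sirt3.
Cd38, chr5:43868559-43868858, plus strand: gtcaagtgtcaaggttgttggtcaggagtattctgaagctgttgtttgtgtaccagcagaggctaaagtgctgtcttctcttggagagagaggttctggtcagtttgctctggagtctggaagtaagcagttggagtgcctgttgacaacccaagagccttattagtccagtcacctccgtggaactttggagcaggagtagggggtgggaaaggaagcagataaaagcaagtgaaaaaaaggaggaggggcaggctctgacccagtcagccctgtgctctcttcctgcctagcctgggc
Nampt, chr12:32820085-32820384, plus strand: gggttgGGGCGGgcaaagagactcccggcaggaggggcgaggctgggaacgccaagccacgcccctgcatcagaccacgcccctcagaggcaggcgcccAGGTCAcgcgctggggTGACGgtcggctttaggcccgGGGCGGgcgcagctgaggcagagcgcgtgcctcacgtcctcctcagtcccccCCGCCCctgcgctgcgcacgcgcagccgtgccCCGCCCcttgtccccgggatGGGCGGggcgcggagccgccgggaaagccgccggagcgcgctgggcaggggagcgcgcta
Sirt1, chr10:63338986-63339285, minus strand: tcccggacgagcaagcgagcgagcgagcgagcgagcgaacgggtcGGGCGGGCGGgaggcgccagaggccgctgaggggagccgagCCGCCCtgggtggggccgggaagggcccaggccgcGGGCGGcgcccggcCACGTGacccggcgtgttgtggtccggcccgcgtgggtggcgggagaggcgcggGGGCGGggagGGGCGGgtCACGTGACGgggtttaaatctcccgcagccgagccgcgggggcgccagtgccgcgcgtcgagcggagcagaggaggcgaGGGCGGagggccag

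The 3 windows differed in base composition. The Cd38 window held 1 CpG at 51.7% GC, and 14.1% of the 32851 mouse promoters of this length held as few or fewer, with a median of 7. The Nampt window held 36 CpG at 76.3% GC and the Sirt1 window 47 CpG at 79.0% GC, counts reached or undercut by 94.4% and 98.8% of promoters. The motifs were searched on both strands and were the E-box CACGTG (in 7.15% of all promoters), the GC box GGGCGG (35.7%), the TATA box TATAAA (13.6%), the AP-1 element TGANTCA (7.81%), the nuclear receptor element AGGTCA (16.3%), the CRE core TGACG (20.8%), the C/EBP element TTNCNNAA (40.7%) and the NF-kB element (2.46%). None of these was found in the Cd38 window. The Nampt window held 5 GC boxes, 1 AGGTCA at position -151 from the start and 1 TGACG at -135. The Sirt1 window held 7 GC boxes, some of them overlapping, and E-boxes at -115 and -43, the latter overlapping a TGACG at -39. These matches describe letters and not binding.

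Library totals ran from 35584931 counts in melatonin replicate 4 to 52401153 in vehicle replicate 4. Melatonin replicate 4 lay apart from the other melatonin libraries on the second principal component (-54.4 against 18.5 to 25.5, with 14.4% of the variance). Values without it are given for several results but not for every range. Genes of the mitochondrial genome took 1.05% to 1.3% of counts in vehicle and 2.09% to 2.44% in melatonin. Levels are given as CPM, which expresses each count relative to its TMM-scaled library total. The FAP markers summed to 26121 to 31016 CPM in vehicle and 12579 to 14586 CPM in melatonin, or from 14529 CPM without melatonin replicate 4. Most of that sum was Col1a1 (mean 13770 CPM in vehicle and 6658 in melatonin) and Col3a1 (12415 and 5741), so its fall is mainly that of these collagen genes. Of the 9 FAP markers none rose and 5 fell, where 18.1% of all genes tested rose and 18.5% fell. Pdgfra, their defining receptor, was present in every library and did not pass. It was at 508 to 630 CPM in vehicle and 354 to 509 CPM in melatonin, or from 491 CPM without melatonin replicate 4. Cd34 (139 and 119 CPM), Thy1 (426 and 491) and Pi16 (8.13 and 5.85) did not pass either. The 5 FAP markers that fell were not only collagen genes. Beside Col1a1 and Col3a1 they were Dcn, Ly6a and Dpp4, with log2 fold changes, melatonin over vehicle, of -1.38, -0.58 and -0.97. In such bulk samples, fewer cells of a type and less RNA per cell cannot be told apart.

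Cd38 and Bst1, the pair of NAD-cleaving ecto-enzymes, were the members with the largest differences, and both were far lower with melatonin, whereas the salvage enzyme Nampt was lower by 27.0%. Nmnat1, Nnmt, Parp1 and Sirt1 were higher by 1.25- to 1.39-fold. Nmnat3, Naprt and Sirt3 did not pass. Of the 10 genes, 7 passed edgeR's quasi-likelihood test at an adjusted p under 0.05 over all 16565 genes tested, where 36.5% of all genes passed. Of these, 4 were higher, as were 18.1% of all genes, and 3 were lower, as were 18.5% of all genes. The groups did not overlap for 7 of the 10, as for 37.7% of all genes. Nothing is read from these shares, since the same contrast chose the genes. The median log2 fold change of the 10 was 0.03, with a median absolute value of 0.43, beside 0.01 and 0.30 over all genes tested.

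**Figure D1:**
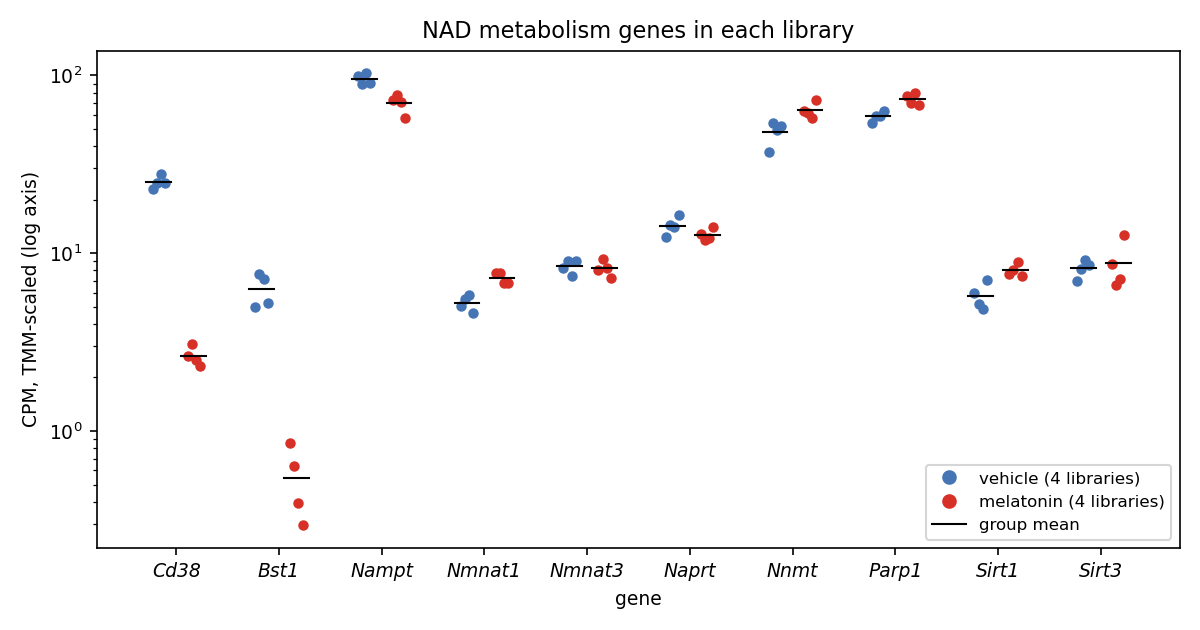
CPM on TMM-scaled library sizes (vertical axis, logarithmic) of each of the 10 NAD genes in the 4 vehicle and 4 melatonin libraries, with 1 point per library and a bar at the group mean. Cd38 lies at 22.9 to 27.8 CPM in vehicle and at 2.31 to 3.10 CPM in melatonin, while the points of Nmnat3, Naprt and Sirt3 overlap between groups.

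Cd38 encodes the main NAD glycohydrolase of mammalian tissues. It was measured at 22.9, 24.9, 27.8 and 24.9 CPM in vehicle replicates 1 to 4 and at 2.65, 3.10, 2.50 and 2.31 CPM in melatonin replicates 1 to 4. Every vehicle library was thus several times above every melatonin library, and melatonin replicate 4 was not apart from the other 3. The means were 25.1 ± 2.0 and 2.64 ± 0.336 CPM (SD, n = 4 each), a 9.52-fold lower level with melatonin. The log2 fold change was -3.25 ± 0.12 (SE), with an adjusted p of 2.7e-07 in edgeR, and it ranked 99 by fold among the 3062 genes that fell. The counts behind it were 1077 to 1266 per library in vehicle and 86 to 137 in melatonin.

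Bst1, also called CD157, encodes the GPI-anchored relative of CD38 known from bone marrow stroma. It was measured at 5.01, 7.59, 7.15 and 5.27 CPM in vehicle and at 0.852, 0.638, 0.392 and 0.295 CPM in melatonin. The groups did not overlap, and the melatonin values rested on 11 to 44 counts per library, against 249 to 328 in vehicle. The means were 6.26 ± 1.3 and 0.544 ± 0.251 CPM (SD, n = 4 each), an 11.5-fold lower level with melatonin. The log2 fold change was -3.50 ± 0.30 (SE; edgeR adjusted p = 2.0e-05), and it ranked 74 among the genes that fell. Bst1 shares 98 exon bases (2.95% of its exon length) with Fbxl5 on the opposite strand, and the use of strand in counting is not given in the sources used here. On levels per kilobase of exon, Cd38 made up 73.7% to 80.1% of the sum of Cd38 and Bst1 in vehicle libraries and 72.6% to 87.0% in melatonin libraries, so the ranges overlapped.

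Because both ecto-enzymes are also immune-cell genes, marker lists of such cells are given beside them. The 10 macrophage markers summed to 467 to 713 CPM in vehicle and 316 to 595 CPM in melatonin, or from 550 CPM without melatonin replicate 4. Of the 9 that were tested, 2 rose (C1qa and Mrc1) and 1 fell (Csf1r), where 18.1% of all genes tested rose and 18.5% fell. None of the 10 was at 0 in every library. Ptprc, the pan-leukocyte CD45 gene, was at 2.83 to 3.89 CPM in vehicle and 0.751 to 2.63 CPM in melatonin and did not pass. The 3 T-cell markers in the table summed to 1.47 to 2.13 and 1.18 to 1.94 CPM, the 2 neutrophil markers to 2.52 to 3.63 and 0.794 to 1.54 CPM, and the 2 B-cell markers to 0.0658 to 0.401 and 0.987 to 1.13 CPM. Csf3r of the neutrophil list and Lck of the T-cell list fell, and Ighm of the B-cell list rose. Most of the macrophage sum was Lyz2 (mean 444 CPM in vehicle and 398 in melatonin), so the overlap of its range between groups is mainly that of this gene. Of the other tested macrophage markers, Ptprc, Adgre1, Csf1r, Fcgr1 and Itgam had lower means with melatonin, and Cd68, Mrc1 and C1qa had higher ones. The part of these cells in the Cd38 and Bst1 values was not tested.

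In the genome the pair lies side by side on the plus strand of mouse chromosome 5 (GRCm38, GENCODE M21), Bst1 at 43818885 to 43843986 and Cd38 at 43868553 to 43912375, with 24566 bases between them. Within 500 kb of them the table held 14 other genes, looked at by position after the results were known. Of these 14, 9 were tested, none rose, 4 fell and 5 did not pass in edgeR, where 18.1% of all genes tested rose and 18.5% fell. C1qtnf7, which encodes a secreted C1q and TNF related protein, fell by 1.22 ± 0.10 (SE) on the log2 scale, and the cilium gene Cc2d2a fell by 0.74 ± 0.11. Fbxl5, the iron-sensing ubiquitin ligase subunit that overlaps Bst1, fell by 0.58 ± 0.14, and Gm15866, annotated as antisense, fell by 1.89 ± 0.48. Gm15866 was at 0.984 CPM in vehicle and 0.274 in melatonin and lies within the bounds of C1qtnf7 on the opposite strand. As the use of strand in counting is not given, the falls of Gm15866 and C1qtnf7 may not be separate. Tapt1 (0.12) and Prom1 (-0.47) did not pass. Cd38 and Bst1 had a larger fall than any tested neighbour in this window.

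**Figure D2:**
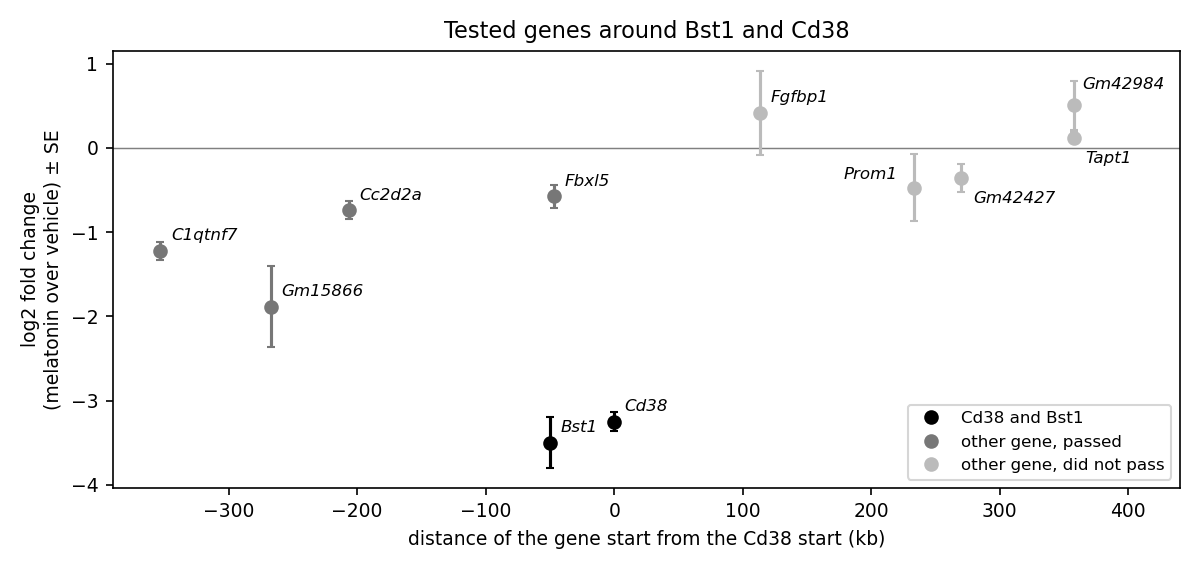
Log2 fold change, melatonin over vehicle (vertical axis), of the tested genes around Bst1 and Cd38 against the distance of the gene start from the Cd38 start in kb (horizontal axis). Black points are Cd38 and Bst1, dark grey points are other genes that passed edgeR at an adjusted p under 0.05, light grey points did not pass, and bars are ± 1 SE. Bst1 (-3.50) and Cd38 (-3.25) sit well below the other 9 genes, which lie between -1.89 and 0.51.

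Downstream of these enzymes, ADP-ribose opens the calcium channel encoded by Trpm2. Trpm2 fell 4.03-fold, from 1.79 ± 0.146 to 0.445 ± 0.0435 CPM (SD, n = 4 each), a log2 fold change of -2.0 ± 0.18 (edgeR adjusted p = 3.0e-05). The counts behind it were 77 to 91 per library in vehicle and only 15 to 27 in melatonin. Trpm2 was the only one of the 4 tested targets of ADP-ribose messengers to pass. Ryr1, a calcium release channel of muscle, had a log2 fold change of 0.67 ± 0.44 and did not pass (0.97 ± 0.24 without melatonin replicate 4, adjusted p = 0.011 in edgeR). The summed myogenic markers were 45.5 to 62.9 CPM in vehicle and 63.7 to 97.4 CPM in melatonin except 26.3 CPM in melatonin replicate 4. Of the 6 other extracellular nucleotide enzymes tested, none rose and 3 fell, where 18.1% of all genes tested rose and 18.5% fell. DESeq2, limma-voom and an unadjusted p under 0.05 also gave no rise. Enpp1, a surface pyrophosphatase that can cleave NAD, went from 11.9 to 6.65 CPM (-0.84 ± 0.15, adjusted p = 0.0015 in edgeR), and Art3, a relative of the arginine ADP-ribosyltransferases, from 11.8 to 5.62 CPM (-1.07 ± 0.19, 0.0016). Enpp3, of the same family as Enpp1 and named after its values were seen, fell by 1.09 ± 0.22. Nt5e, the CD73 nucleotidase, was at 1.89 ± 0.443 and 2.19 ± 0.711 CPM and did not pass.

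Nampt, on chromosome 12 at 32819545 to 32853349, was measured at 98.9, 89.0, 102.7 and 90.9 CPM in vehicle and at 73.0, 77.2, 71.1 and 57.3 CPM in melatonin. Every vehicle library was above every melatonin library, and melatonin replicate 4 was the lowest. The means were 95.4 ± 6.52 and 69.6 ± 8.62 CPM (SD, n = 4 each), with a log2 fold change of -0.45 ± 0.096 (SE; edgeR adjusted p = 0.0045) and of -0.36 ± 0.069 without melatonin replicate 4. The ratio of Nampt to Cd38 CPM was 3.57 to 4.33 in vehicle libraries and 24.8 to 28.4 in melatonin libraries. A test against a minimum fold of 1.2 left Nampt at an adjusted p of 0.050 in edgeR, just outside the threshold.

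Of the NMNAT enzymes that finish NAD, Nmnat1 is the nuclear enzyme and Nmnat3 is usually placed in mitochondria. On GRCm38, Nmnat1 lies on chromosome 4 at 149467572 to 149485202 and Nmnat3 on chromosome 9 at 98287435 to 98420438. Nmnat1 was at 5.03, 5.53, 5.85 and 4.63 CPM in vehicle and at 7.74, 7.75, 6.83 and 6.84 CPM in melatonin, without overlap. It was 1.39-fold higher with melatonin (log2 fold change 0.47 ± 0.11, edgeR adjusted p = 0.0083). Nmnat3 was at 8.27, 9.03, 7.47 and 9.08 CPM in vehicle and at 8.05, 9.29, 8.29 and 7.30 CPM in melatonin. The groups overlapped throughout, and the log2 difference of -0.04 had an interval of ± 2 SE from -0.26 to 0.18. Per kilobase, Nmnat1 made up 45.7% to 56.3% of the sum of the 2 genes in vehicle and 57.6% to 61.3% in melatonin. Nmnat2, the cytosolic and axonal form, had 12.8 CPM in vehicle and 14.5 CPM in melatonin and did not pass (log2 difference 0.18, edgeR adjusted p = 0.16).

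Naprt, which opens the Preiss-Handler route (chromosome 15, 75890956 to 75894481), was at 12.4, 14.4, 14.0 and 16.4 CPM in vehicle and at 12.8, 11.8, 12.2 and 14.1 CPM in melatonin. The groups overlapped, and the log2 difference was -0.17 with an interval from -0.38 to 0.04. It shares 277 exon bases (11.8% of its exon length) with Eef1d on the same strand. Nadsyn1, the NAD synthetase that ends the route, was 0.32 higher on the log2 scale and Qprt, which feeds it from tryptophan, was 0.68 lower, and neither passed (adjusted p = 0.086 and 0.18 in edgeR).

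Of the 5 other salvage genes tested, 1 rose and 1 fell, where 18.1% of all genes tested rose and 18.5% fell. Nmrk2, the muscle nicotinamide riboside kinase, was at 0.241, 0.44, 0.351 and 0.401 CPM in vehicle. In melatonin it was at 1.74, 2.46, 1.34 and 0.536 CPM, where replicate 4 was the lowest. Nmrk2 had only 12 to 20 counts per library in vehicle and 20 to 104 in melatonin. Its log2 fold change was 2.09 ± 0.43 (edgeR adjusted p = 0.0038), and the myogenic marker sum given beside Ryr1 was also lowest in melatonin replicate 4, a link that was not tested. Pnp2, a purine nucleoside phosphorylase, fell by 0.87 ± 0.16, from 36.6 to 20.0 CPM. Its near-identical paralog Pnp was not found in the count table by its GENCODE M21 ID. In that annotation Pnp2 lies within the bounds of Pnp on the same strand, so the Pnp2 value is uncertain. Nmrk1, the widespread riboside kinase, was 0.23 higher with an edgeR adjusted p of 0.28. Of the 5 transport genes tested, none rose, also with DESeq2, limma-voom and an unadjusted p under 0.05, and 1 fell, while library totals alone as the scale gave 1 and 1. The nucleoside transporter Slc29a1, which can carry nicotinamide riboside, fell from 212 ± 14.2 to 97.6 ± 9.83 CPM (-1.12 ± 0.085, edgeR adjusted p = 9.0e-06). Slc12a8, described as a nicotinamide mononucleotide carrier, and Slc25a51, the mitochondrial NAD carrier, did not pass (log2 differences -0.55 and -0.19).

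Of the 5 tested genes of synthesis from tryptophan, 2 rose and 1 fell, where 18.1% of all genes tested rose and 18.5% fell. Kmo, Kynu and Acmsd were not in the count table, and Tdo2, Haao and Aadat were below the filter for testing, so the route was only partly measured. Kyat1 and Kyat3, aminotransferases that divert kynurenine to kynurenic acid, went from 4.41 to 8.26 CPM and from 4.52 to 8.43 CPM (log2 fold changes 0.90 ± 0.099 and 0.90 ± 0.15; edgeR adjusted p = 8.6e-05 and 0.0012). Ido2, a tryptophan dioxygenase named after its values were seen, fell from 0.834 to 0.152 CPM (-2.50 ± 0.42), with 4 to 9 counts per library in melatonin. Ido1 had 6, 4, 6 and 6 counts in vehicle and 0, 0, 2 and 0 in melatonin and was below the filter for testing.

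Nnmt, the nicotinamide methyltransferase known from liver and adipose tissue (chromosome 9, 48591877 to 48605153), was measured at 37.2, 54.3, 49.5 and 51.8 CPM in vehicle and at 62.8, 61.7, 57.7 and 73.2 CPM in melatonin. Vehicle replicate 1 was the lowest and melatonin replicate 4 the highest, and the groups did not overlap. The means were 48.2 ± 7.60 and 63.8 ± 6.62 CPM (SD, n = 4 each), a 1.32-fold higher level (log2 fold change 0.40 ± 0.12, edgeR adjusted p = 0.026), and without vehicle replicate 3 the edgeR adjusted p was 0.053. The adipocyte markers, of which 4 of 5 tested rose, summed to 103 to 108 CPM in vehicle and 637 to 804 CPM in melatonin, and their part in the Nnmt value was not tested. Of 8 tested genes of the methyl donor cycle, 3 rose and none fell, where 18.1% of all genes tested rose and 18.5% fell. An unadjusted p under 0.05 gave 4 and 0, DESeq2 4 and 0, limma-voom 3 and 0, and library totals alone 5 and 0. Ahcy, which clears the S-adenosylhomocysteine that NNMT forms, rose from 73.6 to 97.5 CPM (0.41 ± 0.059, edgeR adjusted p = 5.1e-04). Amd1, which decarboxylates S-adenosylmethionine for polyamine synthesis, rose from 33.7 to 43.9 CPM (0.38 ± 0.078), and methionine synthase (Mtr), named after its values were seen, rose by 0.32 ± 0.082. Aox1, an oxidase of methylnicotinamide, fell from 13.6 to 9.64 CPM (-0.50 ± 0.11, edgeR adjusted p = 0.0051).

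Parp1 (chromosome 1, 180568924 to 180601254) was measured at 54.1, 59.2, 59.2 and 63.1 CPM in vehicle and at 76.6, 69.9, 79.6 and 68.6 CPM in melatonin. All melatonin libraries were above all vehicle libraries, by a margin that was small beside those of Cd38 and Bst1. The means were 58.9 ± 3.69 and 73.7 ± 5.30 CPM (SD, n = 4 each), with a log2 fold change of 0.32 ± 0.074 (edgeR adjusted p = 0.0071). The list of 17 other PARP family and poly-ADP-ribose removal genes had no gene that rose and 9 that fell, where 18.1% of all genes tested rose and 18.5% fell. DESeq2 and limma-voom also gave 0 and 9, and an unadjusted p under 0.05 gave 0 and 10. Leaving out vehicle replicate 3 or scaling by library totals alone left 5 that fell. In edgeR, a minimum fold of 1.2 left 4 that fell, and an adjusted p under 0.01 left 2. Parp2, the other DNA-break enzyme, did not pass (log2 difference -0.09, edgeR adjusted p = 0.59), nor did the tankyrases Tnks and Tnks2 (0.01 each).

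Parp11 and Parp8, which add mono-ADP-ribose, went from 41.0 to 21.4 CPM (-0.94 ± 0.17, edgeR adjusted p = 0.0022) and from 40.8 to 29.7 CPM (-0.46 ± 0.11, 0.0075). The other genes of the list that fell, named after their values were seen, were Parp14 (-1.43 ± 0.45), Parp12 (-1.15 ± 0.28), Parp9 (-0.97 ± 0.26), Parp10 (-0.94 ± 0.23), Zc3hav1 (-0.67 ± 0.21), Parp4 (-0.51 ± 0.14) and Parg (-0.32 ± 0.096). Of the 8 fits that left out a library, the call was lost in 5 for Parg, in 3 for Zc3hav1 and in 2 for Parp9. Of these genes, Parp9, Parp10, Parp12, Parp14 and Zc3hav1 are known as interferon-induced antiviral genes. Parp14 was at 201, 138, 272 and 173 CPM in vehicle and at 115, 86.9, 64.2 and 25.0 CPM in melatonin, and its edgeR adjusted p of 0.042 passed under 7 of the 18 alternatives. Summed with Parp11, those 5 genes took 542 to 890 CPM in vehicle and 446, 378, 296 and 182 CPM in melatonin, where replicate 4 was again the lowest. They were put together after their values were seen, and all had fallen, so the gap between groups in this sum supports nothing further.

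Sirt1, the nuclear deacetylase (chromosome 10, 63319005 to 63381704), was measured at 5.98, 5.21, 4.87 and 7.06 CPM in vehicle and at 7.63, 8.01, 8.98 and 7.43 CPM in melatonin. The groups did not overlap, although vehicle replicate 4 came close to melatonin replicate 4. It was 1.39-fold higher with melatonin (log2 fold change 0.47 ± 0.13, edgeR adjusted p = 0.020). Without vehicle replicate 2, vehicle replicate 3 or melatonin replicate 3 the edgeR adjusted p was 0.058, 0.058 and 0.054. Sirt3, the main mitochondrial deacetylase (chromosome 7, 140863666 to 140882309), was at 6.94, 8.19, 9.21 and 8.58 CPM in vehicle and at 8.65, 6.67, 7.15 and 12.6 CPM in melatonin. Melatonin replicate 4 was the highest library and the rest overlapped, so the log2 difference of 0.09 (interval -0.30 to 0.48) turned to -0.13 without it. Sirt3 shares 342 exon bases with Psmd13 and 418 with Ric8a, both on the opposite strand. Of the 5 other sirtuins 1 rose and none fell, where 18.1% of all genes tested rose and 18.5% fell. DESeq2 gave 1 and 1, library totals alone 3 and 0, and leaving out melatonin replicate 3 also 3 and 0. Sirt4, another mitochondrial sirtuin, rose from 6.66 to 9.49 CPM (0.51 ± 0.10, edgeR adjusted p = 0.0031), while cytosolic Sirt2 (0.17) and nuclear Sirt6 (-0.17) did not pass. Without melatonin replicate 3, Sirt2 passed at 0.21 ± 0.071 (edgeR adjusted p = 0.049). Sarm1, an intracellular NAD hydrolase known from axon degeneration, passed with a log2 fold change of 0.63 ± 0.21 (edgeR adjusted p = 0.039) although its groups overlapped, and its call was lost in 5 of the 8 fits that left out a library.

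Of 8 genes that handle NADP and damaged NADH, 2 rose and 1 fell. The mitochondrial NAD kinase Nadk2 fell from 18.4 to 13.3 CPM (-0.47 ± 0.096, edgeR adjusted p = 0.0037). The cytosolic kinase Nadk was at 310 ± 76.3 and 311 ± 11.9 CPM (log2 difference 0.00, interval -0.30 to 0.31). Naxe, an epimerase that repairs hydrated NADH, rose from 69.8 to 86.5 CPM (0.31 ± 0.082, edgeR adjusted p = 0.015), and Nudt12, an NADH pyrophosphatase named after its values were seen, rose by 0.56 ± 0.18, a call lost in 5 of the 8 fits that left out a library. Nnt, the mitochondrial transhydrogenase whose loss marks the C57BL/6J strain, was at 8.66 ± 4.08 and 9.92 ± 1.78 CPM and did not pass, with 3.46 CPM in vehicle replicate 3. Across all 10 lists of other NAD genes, 65 of 83 were tested, 10 rose and 18 fell, where 18.1% of all genes tested rose and 18.5% fell. The median absolute log2 fold change of the list genes was 0.38, beside 0.30 over all genes tested. Library totals alone as the scale moved the median of all genes from 0.01 to 0.17, and the list counts became 19 and 14. Then 57.6% in place of 35.7% of the list genes that passed were higher, beside 69.5% in place of 49.4% over all genes. The 10 members kept 4 higher and 3 lower on that scale.

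**Figure D3:**
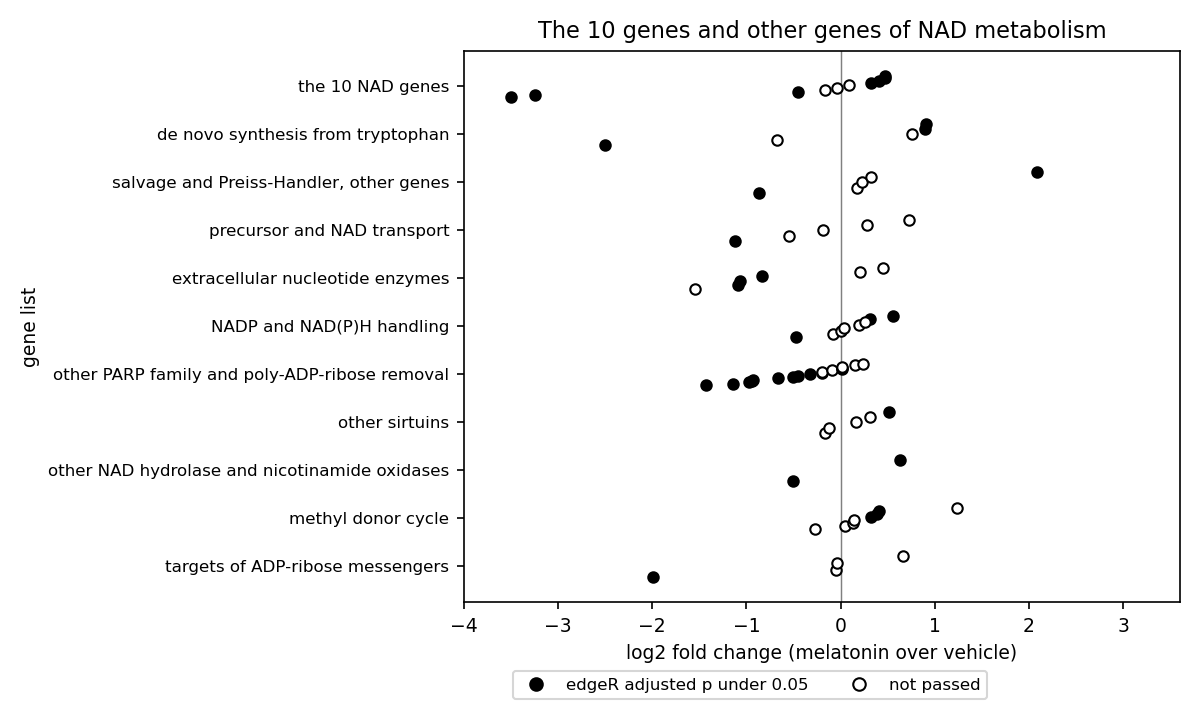
Log2 fold change, melatonin over vehicle (horizontal axis), of each tested gene of the 10 NAD genes and of the 10 lists of other NAD genes (vertical axis), with filled points for edgeR adjusted p under 0.05. The PARP list has 9 filled points, all below 0, and Bst1 (-3.50) and Cd38 (-3.25) are the points farthest to the left.

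The order of the 10 genes was compared on CPM per kilobase of exon. In vehicle, Nnmt was highest (30.6), followed by Nampt (18.9), Parp1 (11.1), Cd38 (6.46), Naprt (6.10), Bst1 (1.89), Nmnat1 (1.73), Nmnat3 (1.69), Sirt3 (1.38) and Sirt1 (1.08). The libraries of Cd38 and Naprt overlapped, as did each pair of neighbours from Bst1 down to Sirt1. In melatonin the order was Nnmt (40.5), Parp1 (13.9), Nampt (13.8), Naprt (5.42), Nmnat1 (2.40), Nmnat3 (1.65), Sirt1 (1.5), Sirt3 (1.47), Cd38 (0.678) and Bst1 (0.164). There Parp1 overlapped Nampt, Nmnat3 overlapped Sirt1 and Sirt1 overlapped Sirt3, and no other neighbours overlapped. Cd38 thus stood at rank 4 of the 10 in vehicle and at rank 9 in melatonin.

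**Figure D4:**
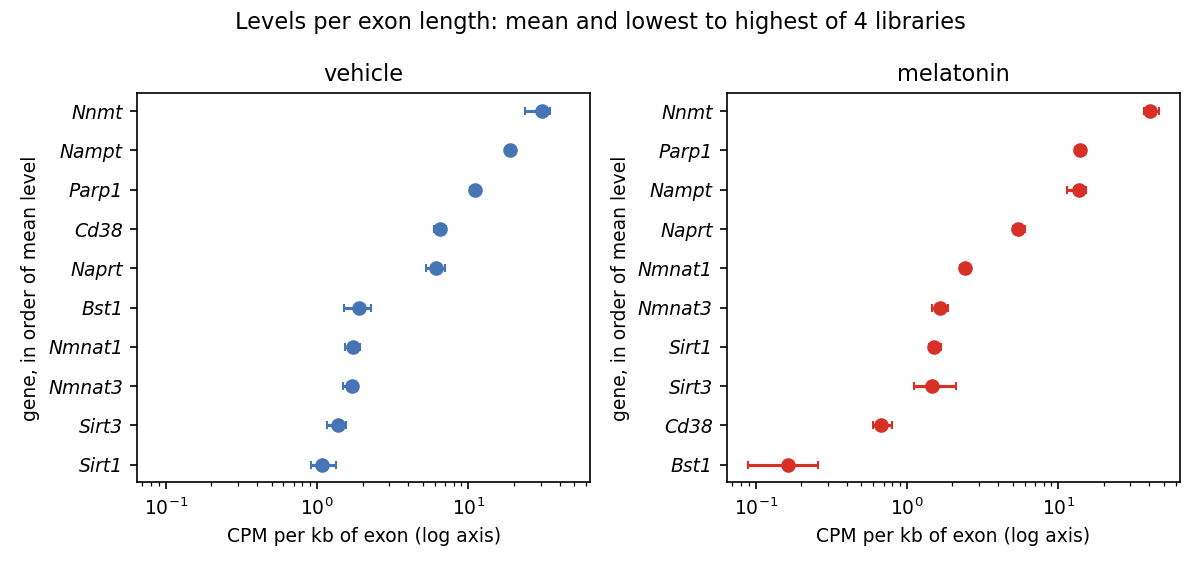
Level of the 10 NAD genes in CPM per kilobase of exon (logarithmic axis), in order of mean level in vehicle (left) and melatonin (right), with points at the mean and bars from the lowest to the highest of 4 libraries. Cd38 stands at a mean of 6.46 in vehicle and 0.678 in melatonin, while Nnmt is highest in both groups at 30.6 and 40.5.

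The genes whose log2 CPM followed that of Cd38 most closely over the 8 libraries were Il4ra, the interleukin 4 receptor chain (Pearson r = 0.999, mean 541 CPM in vehicle and 309.6 in melatonin), the kinase gene Stk24 (r = 0.999, 102 and 60.3 CPM) and the matrix gelatinase gene Mmp9 (r = 0.998, 155 and 22.7 CPM). The 8 libraries share the group difference, and 1036 of 16555 other genes had r over 0.95, so these values are a description. For Nampt they were Samd9l (r = 0.990, 69.9 and 32.1 CPM), 9930111J21Rik2 (r = 0.989, 12.8 and 3.32 CPM) and Pax5 (r = 0.987, 3.66 and 0.651 CPM), with 293 of 16555 genes over 0.95.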

How the data were processed

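RNA of 8 FAP libraries (4 vehicle, 4 melatonin) was sequenced in bulk. The authors deposited whole-number counts for 20781 genes, each with at least 11 counts in all. The columns marked as control were read as vehicle, the sole other group. Per the submitters' processing notes, HISAT2 2.0 and StringTie 1.3.3b were used with mm10, beside DESeq2 1.12.4, Trimmomatic 0.36, FastQC 0.11.2 and bedtools 2.26.0. Of the count table, neither the counting program nor the annotation release nor the strand setting is given in the sources used here. Symbols and exon lengths came from GENCODE M21 (20720 IDs found, 61 not).

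In R 4.3.3, filterByExpr kept 16565 genes, TMM factors were 0.916 to 0.974 in vehicle and 1.05 to 1.08 in melatonin, and edgeR 4.0.16 compared the groups by the robust quasi-likelihood test, two-sided, with group as the only term. P-values were adjusted by Benjamini-Hochberg over all genes tested, with a threshold of 0.05. The SE was the log2 fold change divided by the square root of F, and intervals were ± 2 SE. Alternatives used DESeq2 1.42.0, limma-voom (limma 3.58.1), other scalings and filters, a minimum fold, a stricter threshold, a replicate block and each library left out. All pairs of replicates differed by more than sampling noise (chi-square of 20.7 to 65.1 per gene), and the replicates were taken as separate on the labels' word. Counting error is therefore only a lower bound on the noise of low values, and molecular identifiers are not described.

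The members and gene lists were chosen with earlier results of these data known. Named genes were the 10 members, the 2 with the smallest p of each list, a fixed set (Nmrk1, Nadsyn1, Qprt, Nadk, Nadk2, Nnt, Nt5e, Slc12a8, Slc25a51, Sarm1, Nmnat2, Aox1, Ido1, Sirt2, Sirt6 and Parp2), and the 3 genes most correlated with Cd38 and with Nampt. Genes outside this rule are said to be named after their values were seen, and neighbours of Cd38 were taken by position. Of the marker lists not given in the report, the endothelial markers summed to 30.8 to 37.4 CPM in vehicle and 45.8 to 55.4 in melatonin. Tek rose from 17.1 to 35.3 CPM, Vwf fell from 2.48 to 0.576 CPM and the other 4 did not pass. The pericyte markers summed to 45.2 to 56.4 and 43.3 to 57.3 CPM (Abcc9 and Kcnj8 rose, Rgs5 fell). The Schwann markers summed to 15.4 to 16.7 and 17.0 to 19.7 CPM (Sox10 rose, none fell). Over all genes tested, 18.1% rose and 18.5% fell.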

Additional observations from a re-analysis of the deposited data

Results flagged for a closer look

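Nmrk1, the widespread nicotinamide riboside kinase gene, was at 5.15 CPM in vehicle replicate 1 and at 3.66 to 3.89 CPM in the other 3 vehicle libraries. The gap to its nearest neighbour, divided by the range of the 4 values, exceeded Dixon's 95% critical value for 4 samples. It was the only case among 80 groups of 4 values looked at, and chance gives about 1 in 20 groups.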

How the results depend on the processing

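The falls of Cd38 (log2 fold change -3.32 to -3.09) and Bst1 (-3.80 to -3.30) kept their direction and their call under all 18 alternatives. A minimum fold of 1.2 in edgeR left 3500 of the 6054 genes that passed, 2 of the 7 members and 18 of the 28 other NAD genes, and ended the calls of Nampt, Nmnat1, Nnmt, Parp1 and Sirt1. An adjusted p under 0.01 left 3865 genes, 5 members and 17 other NAD genes. Leaving out each library in turn gave 5098 to 6566 genes, 5 to 7 members and 23 to 28 other NAD genes. The direction changed for these genes, none of which passed: Nadk with DESeq2 (-0.0039), RLE size factors (-0.0039), a mean of at least 50 counts (-0.0089) and single libraries left out (-0.11 to 0.13); Nmnat3 with library totals alone (0.12) and with libraries left out (-0.095 to 0.022); Parp2 with library totals alone (0.065); and, with libraries left out, Slc25a51 (-0.37 to 0.11), Nnt (-0.068 to 0.44), Sirt3 (-0.13 to 0.21) and Nt5e (-0.014 to 0.36). Direction changed without melatonin replicate 4 for Nmnat3, Sirt3 and Nt5e, without vehicle replicate 3 for Nnt, without vehicle replicate 1 or melatonin replicate 3 for Slc25a51, and without vehicle replicate 1, vehicle replicate 3 or melatonin replicate 2 for Nadk. The cause was not tested. Of 1112 values over 62 named genes, 1020 kept direction and call, 70 lost the call, 8 gained it and 14 changed direction. DESeq2 called 6532 genes and limma-voom 6097. At 11 to 44 counts, depth limits the melatonin level of Bst1.

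With the replicate number as a block, 4942 genes, 6 members and 24 other NAD genes passed in edgeR, with Sirt1 at an adjusted p of 0.057. Deviations from the group means of same-numbered libraries correlated at -0.046 to 0.035, within the range of -0.12 to 0.17 for differently numbered libraries. The labels give no pairing, and these correlations cannot decide whether equal numbers mark paired samples.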
